A study of Mus musculus with 6 samples.

Results

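The 2 libraries of brain-sorted cells were set against the 2 sham blood libraries across all genes. A gene was a member if it had at least 10 counts in both libraries of either group, which gave 11980 of the 24394 gene symbols in the count table. Of these, 9843 reached the minimum in both groups, 1099 in brain alone and 1038 in sham blood alone. The brain libraries came from wild-type mice aged 9 weeks (C57BL/6NCrl in the labels, C57BL/6J in the study's methods), 3 days after transient occlusion of the middle cerebral artery (tMCAO) for 60 minutes, and the sham blood libraries from mice of the same genotype, background and age, 3 days after a sham operation. The mice were male. All cells were labelled CD8+ TRLs, regulatory-like T cells, and had been sorted by FACS as CD8+CD122+CD49dlow, with 500 to 1000 cells per library, amplified by SMART-Seq and sequenced as paired 75-bp reads. The 2 blood libraries of tMCAO mice, sorted on the same markers, entered the fit and serve here only as a second blood reference. Counts on genes ranged from 13793081 to 17149924 per library, and replicates differed by an SD of 0.56 (sham blood), 0.626 (brain) and 0.995 (tMCAO blood, which also sets the spread of the fit) on the log2 scale. Tissue and operation changed together between brain and sham blood, so that their effects cannot be told apart, and whether a library was 1 mouse or a pool is not given in the sources used here. Pairs of values are given in the order of replicate 1 and replicate 2. The p-values rest on the spread between the libraries alone, which may be technical.

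CD8+ T cells read antigen through the T cell receptor and its CD3 chains, and CD122 is the receptor chain for IL-2 and IL-15 that marks memory and regulatory-like subsets. Microglia are the resident macrophages of the brain parenchyma, while border-associated macrophages line vessels and meninges and monocytes enter from blood after injury. Macrophages clear dead cells and myelin after stroke, and this work runs through scavenger receptors, lysosomes and the export of cholesterol. Their identity is held by transcription factors such as PU.1 and the C/EBP family, and that of T cells by TCF-1, LEF-1 and GATA3.

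The sorted label was first checked against marker genes, because it fixes what the comparison compares. *Lck*, the proximal T cell receptor kinase (chromosome 4, 129548344 to 129573641 of GRCm38), was at 2355 and 2489.7 CPM (counts on genes scaled to a common library size by TMM) in the sham blood libraries and at 15.5 and 12.4 CPM in the brain libraries. *C1qb*, a chain of complement C1q made by macrophages (chromosome 4, 136880129 to 136886187), was at 0.407 and 0.154 CPM in sham blood and 9472 and 11877 CPM in brain. *Lyz2*, lysozyme of myeloid cells (chromosome 10, 117277331 to 117282321), was at 357 and 1849.8 CPM in sham blood and 17424 and 12453 CPM in brain, so that sham blood 2 held several times more than sham blood 1 but less than either brain library. The groups did not overlap for any of these genes, with *Lck* lower and *C1qb* and *Lyz2* higher in brain at log2 fold changes of -7.44 (SE 0.41, adjusted p = 0.000172), 15.18 (SE 1.68, adjusted p = 0.00107) and 3.76 (SE 0.79, adjusted p = 0.0121) by edgeR's quasi-likelihood test. The call of *Lyz2* was lost without brain 1 (adjusted p = 0.0726) and without brain 2 (adjusted p = 0.0508).

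The transcripts of the sort markers themselves were lower in brain. *Cd8a*, the CD8 alpha chain, measured 947 and 865 CPM in sham blood and 2.30 and 2.2004 CPM in brain, and *Il2rb*, which encodes CD122, 409 and 448 CPM in sham blood against 4.51 and 6.23 CPM in brain. These are differences of -8.65 (SE 0.44, adjusted p = 0.000172) and -6.32 (SE 0.76, adjusted p = 0.00148) on the log2 scale, with no overlap between groups. *Itga4*, the integrin chain CD49d that the sort required to be low, was at 333 and 279 CPM in sham blood and 43.1 and 37.8 CPM in brain. *Ptprc*, the pan-leukocyte CD45, was at 2972 and 3056 CPM in sham blood against 398 and 387 CPM in brain. All 6 genes of this list were lower in brain, where 12.6% of all genes tested were. The list also holds *Ptprc* and *Itgb1*, which are not in the gate given for the sort. *Itgb1*, the integrin beta 1 chain at a log2 fold change of -1.61, lost its call without sham blood 1, brain 1 or brain 2.

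Across the list of 20 T cell identity genes, 8 of which had the minimum count in sham blood alone, all 20 were lower in brain, at a median log2 fold change of -7.41, where 12.6% of all genes tested were lower and their median was 0.13. The list summed to 12649 and 12299.6 CPM in the sham blood pair, 13259 and 18698 in the tMCAO blood pair and 91.8 and 70.9 in the brain pair, which puts the brain libraries at 0.736% and 0.568% of the sham mean. *Cd247*, the CD3 zeta chain, was at 357 and 336 CPM in sham blood and 3.96 and 3.30 CPM in brain. Of 18 genes of NK-type and cytotoxic cells, 9 of them with the minimum in sham blood alone, 18 were lower, among them *Klrd1*, the CD94 receptor, at 703 and 656 CPM in sham blood and 2.12 and 3.39 CPM in brain, and *Gzmk*, granzyme K, at 185 and 136 CPM in sham blood against 2.02 and 1.65 CPM in brain. In bulk samples fewer cells of a type and less RNA per cell cannot be told apart.

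The pan-macrophage list ran the other way. Of its 20 genes, 6 of which had the minimum count in brain alone, 19 were higher in brain, at a median log2 fold change of 7.48 and beside 19.8% of all genes tested that were higher. It summed to 1912 and 3619 CPM in the sham blood pair, 1525 and 852 in the tMCAO blood pair and 79994 and 85027 in the brain pair. *Spi1*, which encodes PU.1, was at 18.4 and 26.2 CPM in sham blood and 535 and 592 CPM in brain, *Cd68*, a macrosialin of macrophage lysosomes, at 31.2 and 37.3 CPM in sham blood against 3236 and 2950.0 CPM in brain, and *Itgam*, the CD11b chain, at 2.24 and 5.53 CPM in sham blood against 298 and 271 CPM in brain. *Csf1r*, the receptor for colony-stimulating factor 1, was at 7.99 and 15.9 CPM in sham blood and 1679.7 and 2370.3 CPM in brain, a log2 fold change of 7.40 (SE 0.54, adjusted p = 0.000514). The markers thus go against the sorted label in the brain libraries, which are called brain libraries below by where they were sorted from. Whether T cells were also among the sorted cells cannot be read from sums over cells.

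**Figure D1:**
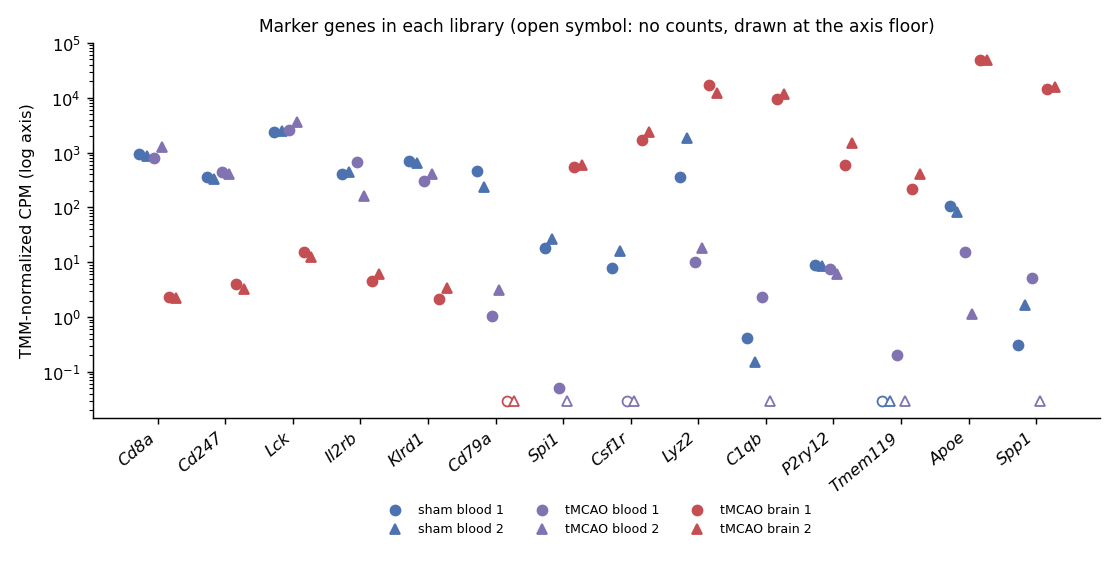
TMM-normalized CPM (log axis) of 14 marker genes in each of the 6 libraries, with circles for replicate 1, triangles for replicate 2 and open symbols for no counts. The T cell genes on the left are lowest in the 2 brain libraries (*Cd8a* 2.30 and 2.2004 CPM) and the macrophage and microglia genes on the right are highest in them (*C1qb* 9472 and 11877 CPM).

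Other cell types left smaller traces. The B cell list summed to 1506 and 882 CPM in the sham blood pair, 33.1 and 92.7 in the tMCAO blood pair and 48.9 and 78.8 in the brain pair, and 11 of the 12 genes tested, 8 of them with the minimum in sham blood alone, were lower in brain (8, 10, 6 and 5 without sham blood 1, sham blood 2, brain 1 and brain 2). *Cd79a*, a chain of the B cell receptor, measured 458 and 239 CPM in sham blood and was without counts in brain, where 3 counts over the group allow at most 0.138 CPM, so that it was at least 2532-fold lower. Of 13 neutrophil genes 6 were tested, 4 of them with the minimum in brain alone, and 4 were higher. *S100a8*, a calprotectin chain, had 3 counts in sham blood and was at 98.99 and 82.5 CPM in brain. Among the genes not tested, the granule genes *Ngp* and *Camp* had no counts in any library, and *Ltf* had 1 count in brain 1. *Elane* had 10 and 6 counts in the brain libraries, *Mpo* 6 and 0, and *Retnlg* 0 and 4. *Mmp9* had 5 and 22 counts in sham blood and 28 and 0 in brain. The astrocyte list summed to 14.6 and 18.03 CPM in sham blood and 46.7 and 131 CPM in brain. *Gja1*, connexin 43, had no counts in sham blood and 16.1 and 42.4 CPM in brain, while *Aqp4* and *Sox9*, which also mark astrocytes, had no counts in any library. The neuron list summed to 4.94 and 6.15 CPM in sham blood against 1.47 and 7.43 CPM in brain, and the endothelial list to 103 and 91.7 CPM against 3.77 and 6.97 CPM. Of the 12 endothelial genes 3 were tested, *Pecam1*, *Ly6c1* and *Abcb1a*. Among the 9 others, *Esam* had 39 and 4 counts in sham blood, and *Cldn5*, *Tek* and *Slco1a4* had none in any library. The part of these other cells in the differences below was not tested.

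**Figure D2:**
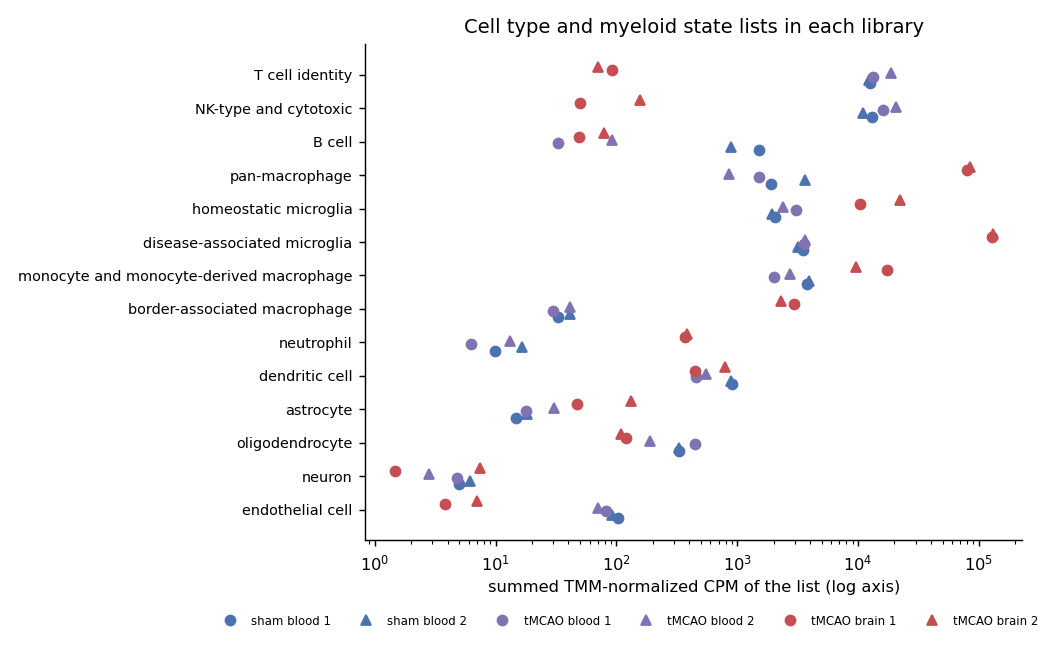
Summed TMM-normalized CPM (log axis) of 14 lists of cell type and myeloid state markers in each of the 6 libraries. The 2 brain libraries lie at 91.8 and 70.9 CPM for T cell identity and at 79994 and 85027 CPM for the pan-macrophage list, the reverse of the 4 blood libraries.

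Of the 11980 genes tested, 2376 (19.8%) were called higher and 1510 (12.6%) lower in brain, each with more than a 2-fold difference and an adjusted p under 0.05, and 8094 were not called. Among the 9843 genes with the minimum count in both groups, 1611 were higher and 1067 lower. A gene with the minimum in one group alone had to differ in that direction, so the number of such members is given beside the lists that hold many, whose counts are no support for a direction. The brain libraries lay above both sham blood libraries for 44.0% of genes and below both for 36.5%. A fitted difference over 100-fold was found for 524 genes higher and 245 lower, and 337 genes had no counts in sham blood and 161 none in brain. With 1 sham blood or brain library left out, the counts of higher genes were 1067, 1166, 942 and 988 (without sham blood 1, sham blood 2, brain 1 and brain 2) and those of lower genes 706, 785, 699 and 730. The split between directions depends on the scaling. With library size alone in place of TMM, 1640 genes were higher and 2760 lower, and the median of all genes moved from 0.13 to -0.44, so that a gene near 0 has no fixed direction. The 10 most counted genes held 16.4% and 16.004% of counts in the brain libraries and 6.01% and 5.91% in sham blood.

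**Figure D3:**
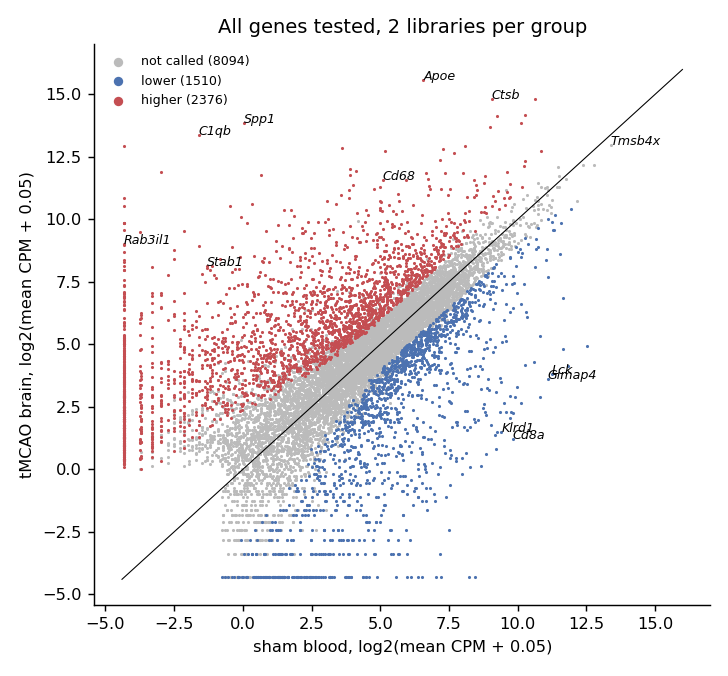
Mean level in sham blood against mean level in brain, each as log2(mean TMM-normalized CPM + 0.05) of 2 libraries, for the 11980 genes tested, with the 2376 higher genes in red, the 1510 lower in blue and the diagonal for equal levels. Both called sets extend far from the diagonal, and genes without counts in a group form the lines at the left and lower edges.

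The 10 higher genes with the smallest p and no overlap between libraries, and most of the 10 such lower genes, were as follows. *Stab1*, the scavenger receptor stabilin 1, was at 0.356 and 0.358 CPM in sham blood and 317 and 245 CPM in brain, and *Tbxas1*, thromboxane synthase, at 0.458 and 0.461 CPM in sham blood against 225 and 183 CPM in brain. *Mertk*, a receptor for apoptotic cells, had 2 counts in sham blood and 127 and 137 CPM in brain, 2585 times as much, with a 95% interval for counting error of 715 to 21355. *Dab2*, an endocytic adaptor, had 1 count in sham blood and 872 and 577 CPM in brain. *Rab3il1*, an exchange factor for Rab GTPases, had none in sham blood and 564 and 459 CPM in brain, at least 6674-fold higher. *Gpx3*, a secreted glutathione peroxidase, *Cpd*, carboxypeptidase D, *Ckb*, brain creatine kinase, *Renbp*, the renin-binding protein, and *Fcgr2b*, the inhibitory Fc receptor, completed this set. *Gpx3* was at 0.102 and 0.154 CPM in sham blood against 282 and 406 CPM in brain and *Cpd* at 0.153 and 0.205 CPM in sham blood against 113 and 155 CPM in brain. The lower set held *Cd8a* and *Cd247* with *Ptprcap*, a CD45-associated protein, *Gimap4* and *Gimap5*, GTPases of lymphocyte survival, *Il18r1*, the IL-18 receptor, *Gpr174*, a lymphocyte lysophospholipid receptor, *Ctsw*, cathepsin W, and *Pdlim1*. *Gimap4* was at 2286 and 2114 CPM in sham blood and 10.5 and 13.9 CPM in brain, and *Pdlim1*, a cytoskeletal PDZ protein, at 182 and 189 CPM in sham blood against 1.93 and 1.38 CPM in brain.

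On the scale per transcript length, the most abundant transcript of the brain libraries was *Apoe*, apolipoprotein E, at 34469 ± 162 FPKM (fragments scaled by transcript length and depth, mean ± SD, n = 2). The iron storage chains *Ftl1* and *Fth1* followed at 27877 ± 5204 and 17189.8 ± 595 FPKM and the actin-binding peptide gene *Tmsb4x* at 12484 ± 29.1 FPKM. *Ctsb*, cathepsin B, measured 10141 ± 1989 FPKM, *Spp1*, osteopontin, 8423 ± 262 FPKM, and *Cst3*, cystatin C, 8075 ± 4473 FPKM. In sham blood *Tmsb4x* was first at 21616 ± 644 FPKM, followed by *B2m*, the MHC class I light chain, at 9346 ± 91.2 FPKM, and *Apoe* was at 86.4 ± 11.9 FPKM. *Tmsb4x*, *B2m* and *Srgn*, the granule proteoglycan serglycin, did not pass the test between the groups, at log2 fold changes of -0.41, -0.57 and -0.11.

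Most lysosome genes were higher in brain. Of 101 genes tested (110 in the table), 72 were higher and 2 lower, with a median log2 fold change of 2.35, beside the 19.8% and 12.6% of all genes. Without sham blood 1, sham blood 2, brain 1 and brain 2 the count of higher genes was 58, 60, 58 and 62. Among 30 lysosomal hydrolases, 24 were higher. *Gusb*, beta-glucuronidase, was at 37.6 and 48.96 CPM in sham blood against 768 and 912 CPM in brain and *Dnase2a*, the acid DNase that digests DNA of engulfed cells, at 5.55 and 8.09 CPM in sham blood against 194 and 164 CPM in brain. *Pla2g15*, the lysosomal phospholipase A2, was at 2.29 and 1.64 CPM in sham blood and 100.2 and 109 CPM in brain (log2 fold change 5.73, SE 0.51, adjusted p = 0.000541).

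Of 17 cathepsins and cystatins tested, 13 were higher and 2 lower. *Lgmn*, the asparagine endopeptidase legumain that processes cathepsins, was at 11.7 and 12.8 CPM in sham blood and 7672 and 7268 CPM in brain, *Ctsb* at 527 and 536 CPM in sham blood against 31069 and 27426 CPM in brain, and *Ctsl*, cathepsin L, at 12.2 and 17.6 CPM in sham blood against 3456 and 4854 CPM in brain. *Ctss*, the cathepsin of antigen-presenting cells, was already at 455 and 573 CPM in sham blood and reached 12775 and 13742 CPM in brain. *Ctsw* and *Cst7*, a cathepsin and a cystatin that cytotoxic lymphocytes also express, were the lower members. *Ctsw* was at 604 and 540.4 CPM in sham blood and 2.02 and 3.03 CPM in brain, and *Cst7*, named after its values were seen, at 322 and 292 CPM in sham blood against 52.1 and 132 CPM in brain, with its call lost without sham blood 1, sham blood 2 or brain 1.

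The membrane of the lysosome and its proton pump were higher to different degrees. Of 22 membrane and sorting genes, 18 were higher, with *Grn*, progranulin, at 12.3 and 22.2 CPM in sham blood and 3879.8 and 4071 CPM in brain, *Slc11a1*, the metal transporter NRAMP1 of phagosomes, at 2.95 and 3.94 CPM in sham blood against 489 and 352 CPM in brain, and *Lamp1*, the main membrane glycoprotein, at 245 and 268 CPM in sham blood against 3812 and 3555 CPM in brain. Of 18 vacuolar ATPase genes tested, 9 were higher (5, 6, 5 and 6 without sham blood 1, sham blood 2, brain 1 and brain 2), at a median log2 fold change of 1.32. *Atp6v0a1*, a membrane-sector subunit, was at 3.41 and 2.05 CPM in sham blood and 161 and 102 CPM in brain, and *Atp6v1a*, the catalytic subunit, at 47.3 and 35.3 CPM in sham blood against 405 and 319 CPM in brain. Of 14 lysosome regulators, 8 were higher (5, 6, 4 and 7 without sham blood 1, sham blood 2, brain 1 and brain 2). *Tfec*, a macrophage member of the MiT/TFE family that drives lysosomal genes, had no counts in sham blood and 45.6 and 22.2 CPM in brain, at least 443-fold higher, whereas *Rragc*, a Rag GTPase of the nutrient-sensing complex, was at 135 and 127 CPM in sham blood against 471 and 486 CPM in brain.

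MiT/TFE factors bind a palindromic element called CLEAR in promoters of lysosomal genes, so the RefSeq promoters (250 bases before to 50 after the start, GRCm38.p6) were searched for TCACGTGA, which reads the same on both strands. Of the 11980 genes, 9210 had a promoter, with 11689 promoters in all. The element was found in 1.85% of all promoters, 1.81% of those of higher genes, 1.03% of those of lower genes and 9 of 92 promoters (9.78%) of the lysosome class, for which 79 of 101 genes matched. A match is a description of these letters and not a measured binding site. The stretches of 5 higher genes of the class that hold a match are shown 5′ to 3′ on the gene's strand, with the element in capitals, because they carry the letters behind that share. *Mcoln1*, *Ctsa* and *Cln3* were chosen here for the match after their values were seen.
*Ctsd* (cathepsin D, chr7:142387874-142387971, minus strand): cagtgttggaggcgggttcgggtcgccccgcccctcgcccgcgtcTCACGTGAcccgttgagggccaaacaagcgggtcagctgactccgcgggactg
*Mcoln1* (the lysosomal calcium channel TRPML1, chr8:3500428-3500518, plus strand): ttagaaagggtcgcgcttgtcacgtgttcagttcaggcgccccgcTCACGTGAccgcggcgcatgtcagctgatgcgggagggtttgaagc
*Ctsa* (cathepsin A, chr2:164833715-164833772, plus strand): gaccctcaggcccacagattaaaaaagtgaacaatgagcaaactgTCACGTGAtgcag
*Cln3* (battenin, a lysosomal membrane protein, chr7:126583306-126583403, minus strand): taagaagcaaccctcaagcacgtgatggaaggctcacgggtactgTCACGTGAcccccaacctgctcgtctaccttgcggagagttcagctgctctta
*Atp6v1a* (chr16:44139339-44139436, minus strand): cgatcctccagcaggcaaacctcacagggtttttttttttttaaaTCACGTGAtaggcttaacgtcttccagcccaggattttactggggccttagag

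The counts of these 5 genes did not overlap between groups. *Ctsd* was at 682 and 537 CPM in sham blood and 14802 and 20768 CPM in brain, *Ctsa* at 342 and 334 CPM in sham blood against 2880.1 and 3188 CPM in brain, *Cln3* at 34.9 and 35.7 CPM in sham blood against 176 and 152 CPM in brain, and *Mcoln1* at 9.97 and 13.01 CPM in sham blood against 99.997 and 80.7 CPM in brain. Their log2 fold changes ran from 2.22 for *Cln3* to 4.87 for *Ctsd*. Elements of 3 other factor families were counted in the same way. The PU.1 element GAGGAAGT, on either strand, was in 3.53% of all promoters, 3.86% of higher and 4.48% of lower genes. The RUNX element TGTGGTT was in 3.92% of all promoters, 3.16% of higher and 6.21% of lower genes. The AP-1 element TGANTCA was in 5.10% of all promoters, 6.90% of higher and 5.31% of lower genes, and in 8.70% of the lysosome class. A higher and a lower gene with a match are shown for comparison, with the element in capitals (PU.1 read on the opposite strand).
*Fcgr4* (an activating Fc receptor, chr1:171018857-171018925, plus strand): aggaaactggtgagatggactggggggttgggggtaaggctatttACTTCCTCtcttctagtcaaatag
*Lck* (chr4:129573648-129573744, minus strand): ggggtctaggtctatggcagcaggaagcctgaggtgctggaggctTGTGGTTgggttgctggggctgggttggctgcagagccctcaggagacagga

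Lipid genes were higher in parts of the pathway and not in others. Of 90 genes tested, 48 were higher and 7 lower (31, 32, 26 and 28 higher without sham blood 1, sham blood 2, brain 1 and brain 2), at a median log2 fold change of 1.76. Cholesterol efflux and lipoprotein genes were higher in 15 of 17, with 6 of the 17 at the minimum in brain alone (10, 10, 10 and 9 without sham blood 1, sham blood 2, brain 1 and brain 2). *Apoe* was at 105 and 84.2 CPM in sham blood and 48959.7 and 49458 CPM in brain, a log2 fold change of 9.02 (SE 1.29, adjusted p = 0.00281). *Pltp*, the phospholipid transfer protein, was at 19.6 and 17.8 CPM in sham blood against 701 and 379.7 CPM in brain, and *Lrp1*, a receptor that takes up lipoproteins and myelin, at 1.12 and 2.25 CPM in sham blood against 284 and 151 CPM in brain. *Apoc1* had 1 count in sham blood and 69.7 and 63.99 CPM in brain. By contrast, of 20 genes of cholesterol synthesis 3 were higher and 3 lower (at most 1 each way without a sham blood or brain library, and 6 lower without tMCAO blood 2), with a median of -0.41 that was -0.98 with library size alone, and *Idi1*, isopentenyl diphosphate isomerase, was at 122 and 68.5 CPM in sham blood and 32.7 and 14.1 CPM in brain (call lost without sham blood 1 or brain 2).

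Storage and eicosanoid genes were among the higher lipid genes, beside 19.8% higher and 12.6% lower over all genes tested. Of 18 lipid droplet and storage genes, 12 were higher (6, 8, 6 and 6 without sham blood 1, sham blood 2, brain 1 and brain 2). *Plin2*, the droplet coat protein perilipin 2, was at 22.8 and 31.7 CPM in sham blood and 2789 and 1911 CPM in brain, and *Hilpda*, a hypoxia-inducible inhibitor of lipolysis, at 35.5 and 63.8 CPM in sham blood against 532 and 392 CPM in brain. *Fabp5*, a fatty acid carrier, was at 15.01 and 14.9 CPM in sham blood against 1167 and 549 CPM in brain. Of 16 genes of eicosanoid synthesis tested, 6 of them with the minimum in brain alone, 12 were higher and 2 lower. *Hpgds*, the haematopoietic prostaglandin D synthase, was at 3.51 and 2.87 CPM in sham blood and 370.5 and 540.4 CPM in brain, *Ptgs1*, cyclooxygenase 1, at 2.39 and 2.41 CPM in sham blood against 120.0 and 249 CPM in brain, while *Mgst2*, a microsomal glutathione transferase, went from 68.3 and 75.3 CPM in sham blood to 1.93 and 2.2004 CPM in brain. Fatty acid synthesis and oxidation had 6 higher and 2 lower of 19 (1, 1, 1 and 2 higher without sham blood 1, sham blood 2, brain 1 and brain 2), and its median of 0.33 turned to -0.25 with library size alone. *Scd1*, the desaturase that makes oleate, was at 26.2 and 19.6 CPM in sham blood and 0.0920 and 1.28 CPM in brain (call lost without sham blood 1).

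**Figure D4:**
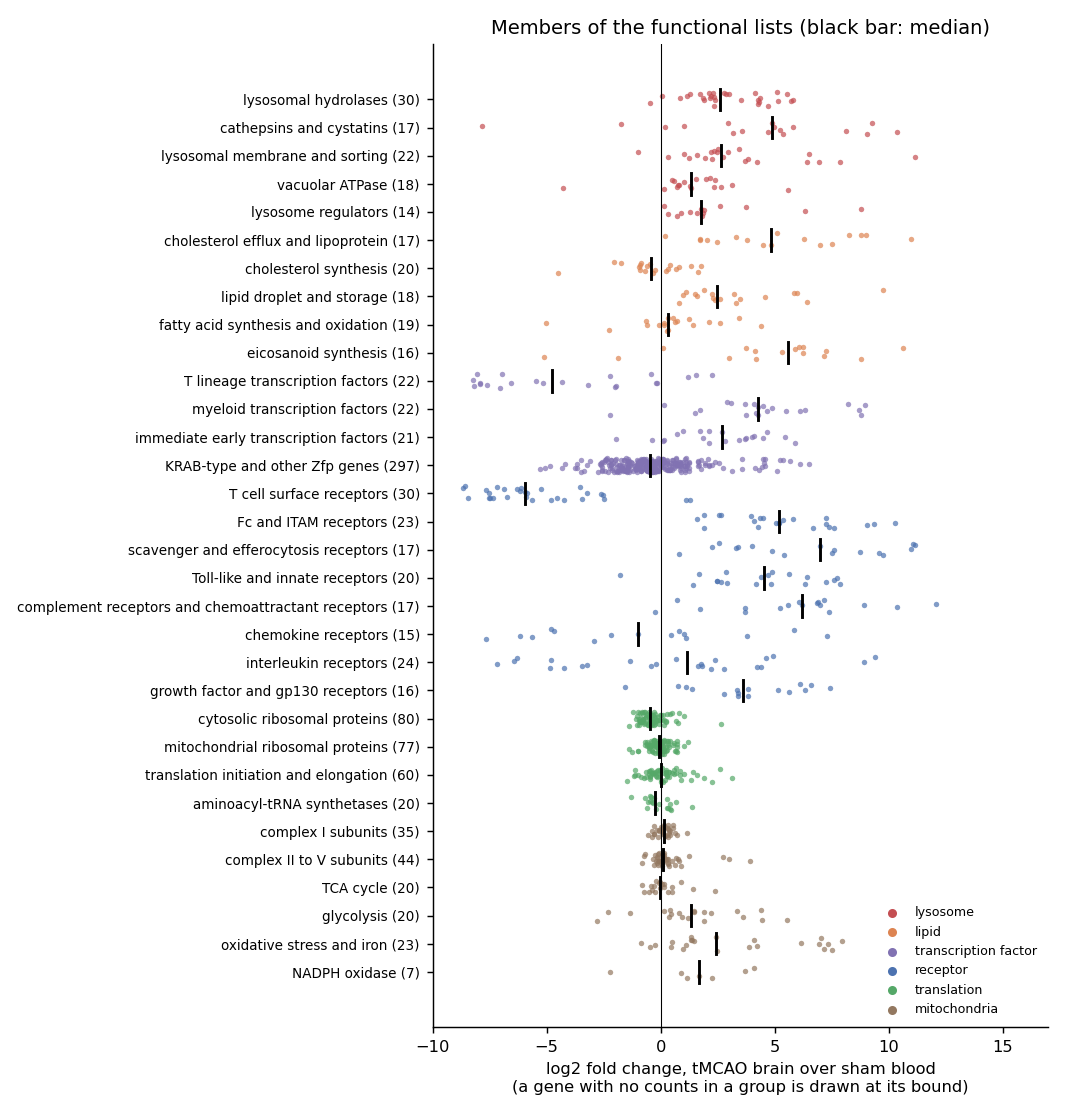
Log2 fold changes of brain over sham blood for each tested member (points) of the lists of 6 functional classes, with the number tested in brackets, the median as a black bar and genes without counts in a group at their bound. Most lysosome lists, the myeloid transcription factors and the innate receptors lie to the right, T lineage transcription factors (median -4.75) and T cell surface receptors to the left, and translation and respiratory chain lists around 0.

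Receptors divided by the cell type that is known to carry them, beside 19.8% higher and 12.6% lower over all genes tested. Of 152 genes tested, 92 were higher and 32 lower (57 and 60 higher without brain 1 and brain 2). Of 30 T cell surface receptors, 8 of them with the minimum in sham blood alone, 28 were lower, with *Cd7* at 603 and 583 CPM in sham blood and 2.02 and 1.38 CPM in brain, and *Cxcr3*, a receptor for interferon-induced chemokines, at 512 and 442 CPM in sham blood against 9.11 and 9.99 CPM in brain. Of 23 genes in the list of Fc and ITAM receptors, which also holds inhibitory receptors such as *Lilrb4a* and *Sirpa*, 20 were higher. *Lilrb4a*, an inhibitory immunoglobulin-like receptor, was at 44.1 and 57.8 CPM in sham blood against 1838 and 1593 CPM in brain, *Fcgr4* at 4.83 and 3.64 CPM in sham blood against 260.1 and 212 CPM in brain, and *Sirpa*, the receptor for the signal CD47, at 3.10 and 6.45 CPM in sham blood against 754 and 720.3 CPM in brain. Of 17 scavenger and efferocytosis receptors tested (21 in the table, and 7 of the 17 with the minimum in brain alone), 16 were higher, among them *Cd163*, the haemoglobin scavenger, with 2 counts in sham blood and 154 and 93.6 CPM in brain, and *Mrc1*, the mannose receptor, at 2.44 and 0.819 CPM in sham blood against 329.9 and 304 CPM in brain.

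Innate sensors followed the same direction. Of 20 Toll-like and innate receptor genes tested, 7 of them with the minimum in brain alone, 17 were higher and 1 lower (12, 12, 9 and 11 higher without sham blood 1, sham blood 2, brain 1 and brain 2). *Tlr7*, the sensor of single-stranded RNA, was at 1.68 and 1.64 CPM in sham blood and 239 and 468 CPM in brain, and *Tlr4*, the sensor of lipopolysaccharide, at 0.967 and 2.41 CPM in sham blood against 87.9 and 78.8 CPM in brain. Of 17 complement and chemoattractant receptors, 9 of them with the minimum in brain alone, 13 were higher, with *P2ry6*, a receptor for UDP that drives microglial phagocytosis, at 1.78 and 1.95 CPM in sham blood against 339.7 and 283 CPM in brain. Growth factor and gp130 receptors were higher in 12 of 16 tested (8, 8, 8 and 7 without sham blood 1, sham blood 2, brain 1 and brain 2), with *Tgfbr1*, the TGF-beta receptor that microglia depend on, at 29.01 and 31.8 CPM in sham blood against 295 and 341 CPM in brain. Chemokine receptors had 3 higher and 4 lower of 15 (2, 2, 1 and 2 higher without sham blood 1, sham blood 2, brain 1 and brain 2), where 19.8% and 12.6% of all genes were, and interleukin receptors 11 higher and 8 lower of 24 (7, 5, 5 and 5 higher without sham blood 1, sham blood 2, brain 1 and brain 2). Among the latter *Il7r* was at 697 and 799 CPM in sham blood and 55.6 and 24.1 CPM in brain, and *Il1rn*, the secreted antagonist of the IL-1 receptor kept in this list, at 0 and 0.871 CPM in sham blood against 257 and 175 CPM in brain.

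Of 359 transcription factors tested, 50 were higher and 80 lower, where 19.8% and 12.6% of all genes were (25, 28, 22 and 22 higher and 38, 37, 35 and 39 lower without sham blood 1, sham blood 2, brain 1 and brain 2). The 297 *Zfp* genes, taken by symbol and not all transcription factors, had 19 higher and 63 lower. The 62 others, listed by lineage or early response, had 31 higher and 17 lower. Of 22 T lineage factors, 6 of them with the minimum in sham blood alone, 16 were lower and 3 higher (at most 1 higher without a sham blood or brain library). *Lef1* was at 192 and 185 CPM in sham blood against 1.93 and 0.917 CPM in brain, *Ets1* at 409.7 and 401 CPM in sham blood against 10.8 and 7.52 CPM in brain, and *Ikzf3*, the lymphoid factor Aiolos, at 139 and 107 CPM in sham blood against 0.368 and 0.550 CPM in brain. *Themis*, a regulator of thymocyte selection kept in this list, is not a transcription factor. It was at 304 and 309 CPM in sham blood and 1.01 and 1.01 CPM in brain. Of 22 myeloid factors, 8 of them with the minimum count in brain alone, 19 were higher and 1 lower (13, 13, 11 and 11 higher without sham blood 1, sham blood 2, brain 1 and brain 2). *Irf8*, needed for microglia and monocytes, was at 32.98 and 31.3 CPM in sham blood against 256 and 284 CPM in brain and *Mef2a* at 64.02 and 65.2 CPM in sham blood against 512 and 463 CPM in brain.

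Immediate early factors, which respond within minutes to stimuli and to tissue handling, were higher in 11 of 21 and lower in 1 (6, 9, 7 and 5 higher without sham blood 1, sham blood 2, brain 1 and brain 2). *Fos* was at 112 and 184 CPM in sham blood and 1489 and 3221 CPM in brain, *Fosb* at 3.61 and 3.53 CPM in sham blood against 94.8 and 84.6 CPM in brain, and *Atf3* at 9.97 and 34.98 CPM in sham blood against 1094 and 1596 CPM in brain. The part of cell isolation in these genes was not tested. The *Zfp* genes, which encode zinc finger proteins, had a median of -0.46 (7, 7, 5 and 6 higher and 23, 23, 20 and 25 lower without sham blood 1, sham blood 2, brain 1 and brain 2). The lower *Zfp53* was at 423 and 489 CPM in sham blood and 27.7 and 40.2 CPM in brain and the higher *Zfp90* at 5.19 and 7.89 CPM in sham blood against 60.2 and 95.9 CPM in brain.

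Few translation genes passed the test. It called 1.49% of simulated 2-fold changes, a share that may be too low for these data, as described below. Of 237 tested, 7 were higher and 12 lower, where 19.8% and 12.6% of all genes were. The count of lower genes was 0 without sham blood 1, sham blood 2 or brain 1, 1 without brain 2, 22 without tMCAO blood 2 and 74 with library size alone, and that of higher genes 1 or 2 without a sham blood or brain library and 11 without tMCAO blood 1. Of 80 cytosolic ribosomal protein genes, 5 were lower (at most 1 without a sham blood or brain library, and 12 without tMCAO blood 2), with a median log2 fold change of -0.45, which is -0.58 against the median of all genes. That difference was also -0.58 with library size alone, although 42 were then lower. Both brain libraries were below both sham blood libraries for 61 of the 80 genes, where this held for 36.5% of all genes, and 27 were lower at an unadjusted p under 0.05. The list summed to 35106 and 34689.6 CPM in sham blood and 25382 and 23799 CPM in brain. *Rps7* was at 386 and 431 CPM in sham blood and 183 and 175 CPM in brain, with no overlap, and lost its call without any 1 of the sham blood or brain libraries. Initiation and elongation genes had 6 higher and 3 lower of 60 (at most 2 higher and 0 lower without a sham blood or brain library), and *Eif4ebp1*, the repressor of cap-dependent initiation, was at 28.96 and 32.7 CPM in sham blood and 195 and 178 CPM in brain (log2 fold change 2.59, SE 0.39, adjusted p = 0.00328). The 77 mitochondrial ribosomal and 20 tRNA synthetase genes had 4 and 1 called (0 without a sham blood or brain library).

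Of 145 mitochondrial and energy genes tested, 32 were higher and 3 lower, a share of 22.1% higher beside 19.8% of all genes (19, 20, 19 and 18 higher without sham blood 1, sham blood 2, brain 1 and brain 2). This class, called mitochondria below, also held the lists of glycolysis, oxidative stress and iron, and NADPH oxidase. These had 9, 15 and 5 of the 32 higher genes. Of 35 complex I genes, 0 were called by edgeR's quasi-likelihood test, DESeq2 or limma-voom, and 2 were higher at an unadjusted p under 0.05. With edgeR 1 was higher without either tMCAO blood library and 1 lower with library size alone, and limma on log2(FPKM + 1) called 1 lower. Their median of 0.16 turned to -0.41 with library size alone, and *Ndufs8* was at 182 and 161 CPM in sham blood and 279 and 286 CPM in brain (adjusted p = 0.146). Complexes II to V had 2 higher of 44 (0 without a sham blood or brain library, 3 without a tMCAO blood library) and the TCA cycle 1 of 20, *Idh2*, the mitochondrial NADP-dependent isocitrate dehydrogenase, at 37.8 and 32.8 CPM in sham blood against 197 and 168 CPM in brain. Mitochondrially encoded genes were not analysed here.

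Of 23 oxidative stress and iron genes, 15 were higher (10, 11, 11 and 10 without sham blood 1, sham blood 2, brain 1 and brain 2). *Fth1* was at 1226 and 1269.9 CPM in sham blood and 17696 and 19022 CPM in brain, *Blvrb*, biliverdin reductase B, at 12.9 and 10.5 CPM in sham blood against 232 and 165 CPM in brain, and *Mt1*, metallothionein 1, at 6.31 and 2.41 CPM in sham blood against 721 and 892 CPM in brain. Glycolysis had 9 higher and 2 lower of 20 (5, 5, 4 and 4 higher without sham blood 1, sham blood 2, brain 1 and brain 2). *Pfkfb3*, which raises the activator of phosphofructokinase, was at 3.87 and 4.20 CPM in sham blood against 93.9 and 80.96 CPM in brain and *Hk2*, hexokinase 2, at 1.73 and 4.05 CPM in sham blood against 52.2 and 69.3 CPM in brain. Among 7 NADPH oxidase genes 5 were higher (3 without any 1 of the sham blood or brain libraries) and 1 lower. *Ncf1*, a cytosolic subunit of the phagocyte enzyme, was at 15.2 and 14.9 CPM in sham blood against 269 and 244 CPM in brain, while *Rac2*, a GTPase of all haematopoietic cells, was at 2216 and 2055 CPM in sham blood and 457 and 454 CPM in brain.

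Secreted factors were higher in 37 of 45 tested, where 19.8% of all genes were. Of 26 trophic and matrix genes, 22 were higher, but 14 of the 26 reached the minimum count in brain alone. *Mmp14*, a membrane metalloproteinase, had no counts in sham blood and 122 and 84.7 CPM in brain, at least 1349.8-fold higher, and *Timp2*, a metalloproteinase inhibitor, was at 13.7 and 26.7 CPM in sham blood against 638 and 1066 CPM in brain. *Pros1*, protein S, a ligand of *Mertk*, was at 9.57 and 5.07 CPM in sham blood against 233 and 415 CPM in brain. Chemokines were higher in 15 of 19 tested, 11 of which had the minimum in brain alone, and lower in 2. *Ccl7* and *Ccl12*, which attract monocytes, had no counts in sham blood. *Ccl7* was at 298 and 200.4 CPM in brain, at least 3251-fold higher, and *Ccl12* at 266 and 556 CPM, at least 5372-fold higher.

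The study names *Lifr*, *Tgfa* and *Il10* for these cells, and *Lif*, the ligand of *Lifr*, for the ischemic tissue. *Lifr*, the receptor for leukaemia inhibitory factor, was at 0.967 and 1.59 CPM in sham blood, 0.104 and 0 in the tMCAO blood pair and 114 and 131 in the brain pair, higher in brain by 6.58 on the log2 scale (SE 0.52, adjusted p = 0.000360). *Tgfa*, a ligand of the EGF receptor, had 1 count in sham blood and 15.6 and 41.3 CPM in brain, 1117 times as much with a 95% counting interval from 199.8 to 44194 (adjusted p = 0.00205). *Il10*, the anti-inflammatory cytokine, was at 2.60 and 1.95 CPM in sham blood and 18.95 and 27.2 CPM in brain, without overlap, but did not pass the test (log2 fold change 3.34, SE 1.28, adjusted p = 0.0853). *Lif* had no counts in sham blood and 1.47 and 0.917 CPM in brain, at least 15.6-fold higher (adjusted p = 0.0270), and lost its call without any 1 of the sham blood or brain libraries (adjusted p from 0.127 to 0.230). The macrophage list was higher and the T cell list lower in brain, as given above, and the cells that carried each transcript cannot be told apart in bulk.

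Markers of several myeloid states were present in the brain libraries together. The counts of their lists stand beside 19.8% higher and 12.6% lower over all genes tested. Of 19 homeostatic microglia genes tested, 9 of them with the minimum in brain alone, 17 were higher in brain, with *P2ry12*, the microglial receptor for ADP, at 8.80 and 8.40 CPM in sham blood and 582 and 1479 CPM in brain, and *Tmem119* and *Siglech* without counts in sham blood. In brain *Tmem119* was at 215 and 408 CPM and *Siglech* at 126 and 444 CPM. The list summed to 2043 and 1935 CPM in sham blood and 10312 and 22299 CPM in brain, and part of the blood sum came from *Selplg*, the selectin ligand of leukocytes, at 1645 and 1612 CPM (named after its values were seen). Of 20 disease-associated microglia genes, which rise in microglia around damage and of which 7 had the minimum in brain alone, 17 were higher and 2 lower (0, 0, 0 and 1 lower without sham blood 1, sham blood 2, brain 1 and brain 2), and they summed to 3512 and 3166 CPM in sham blood and 128276 and 129850.0 CPM in brain. Large parts of this brain sum came from *Apoe*, *Ctsb* and *Ctsd*, at the levels given above, which were also counted in the lipid or lysosome lists. *Axl*, a receptor for apoptotic cells, was at 3.92 and 6.45 CPM in sham blood against 85.8 and 81.7 CPM in brain and *Spp1* at 0.305 and 1.64 CPM in sham blood against 14535 and 15435 CPM in brain. The lower members were *Cd52* and *Cst7*, both also expressed by lymphocytes, with *Cd52* at 1473 and 1192 CPM in sham blood and 568 and 464 CPM in brain (call lost without any 1 of these 4 libraries, adjusted p from 0.0608 to 0.129).

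Genes of monocytes and monocyte-derived macrophages were mixed, with 8 higher and 4 lower of 20 (6, 9, 2 and 6 higher without sham blood 1, sham blood 2, brain 1 and brain 2). *Ms4a7*, of monocyte-derived and border macrophages, had no counts in sham blood and 637 and 377 CPM in brain, at least 6616-fold higher. *Ly6c2*, the Ly6C antigen of classical monocytes and also of memory CD8+ T cells, was at 1391 and 1176 CPM in sham blood and 84.2 and 52.1 CPM in brain. All 13 border-associated macrophage genes tested were higher (11 without brain 1 or brain 2), of 15 in the table, but 9 of the 13 had the minimum in brain alone. *Pf4*, a chemokine also stored in platelets, was at 24.4 and 29.4 CPM in sham blood against 703 and 463 CPM in brain.

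Alternatively activated and inflammatory genes were both higher. Of 11 alternatively activated genes tested, 5 of them with the minimum in brain alone, 10 were higher (8, 8, 7 and 6 without sham blood 1, sham blood 2, brain 1 and brain 2). *Arg1*, arginase 1, had no counts in sham blood and 2183 and 751 CPM in brain, at least 19139.6-fold higher, and *Retnla* and *Ccl22* had none in any library. Of 16 inflammatory genes tested, 10 of them with the minimum in brain alone, 13 were higher. *Saa3*, an acute-phase amyloid, had no counts in sham blood and 810.2 and 1069 CPM in brain, *Cxcl1*, a neutrophil attractant, none in sham blood and 57.3 and 213 CPM in brain, and *Ccl3* was at 15.5 and 47.4 CPM in sham blood against 1025 and 4016 CPM in brain. *Nos2*, the inducible nitric oxide synthase, had 4 and 6 counts in the brain libraries and was not tested.

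Interferon response genes had 9 higher and 1 lower of 20 (4, 3, 5 and 3 higher without sham blood 1, sham blood 2, brain 1 and brain 2). *Oasl2* was at 4.63 and 4.71 CPM in sham blood and 73.3 and 48.8 CPM in brain, and *Ifi204*, a DNA sensor family member, at 5.29 and 11.98 CPM in sham blood against 224 and 206 CPM in brain. Of 20 proliferation genes, 10 were lower (1, 6, 1 and 3 without sham blood 1, sham blood 2, brain 1 and brain 2), with *Mcm6*, a replicative helicase subunit, at 315 and 243 CPM in sham blood and 47.4 and 44.9 CPM in brain.

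MHC class II genes, which macrophages and B cells both express, were called as 3 higher and 2 lower of 10 (0 higher without any 1 of the sham blood or brain libraries). Over all genes tested, 19.8% were higher and 12.6% lower. The class II genes summed to 5816 and 3640.2 CPM in sham blood, 143 and 247 in the tMCAO blood pair and 8700.0 and 8720.3 in the brain pair. The B cell list was likewise higher in sham than in tMCAO blood (1506 and 882 CPM against 33.1 and 92.7 CPM). *H2-DMb2* was at 129 and 75.7 CPM in sham blood, 0.311 and 1.47 in the tMCAO blood pair and 4.78 and 9.17 in the brain pair (call lost without brain 1). *H2-Ab1*, a chain of the presenting molecule I-A, was at 989 and 590.1 CPM in sham blood and reached 2133 and 2269.6 CPM in brain, with 8.71 and 19.01 CPM in the tMCAO blood pair (call lost without any 1 of the sham blood or brain libraries). The part of B cells in the sham blood level was not tested.

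The 2 brain libraries were set against each other as a description, since 1 pair allows no test. Over the 11976 genes with at least 10 counts in a brain library, 5970 were higher in brain 2 and 6006 in brain 1, and 1054 and 577 differed over 2-fold. The pan-macrophage list was level, with a median log2 ratio of 0.10 (brain 2 over brain 1) and 0 of 20 genes over 2-fold. All 20 homeostatic microglia genes were higher in brain 2, 13 of them over 2-fold, with a median of 1.25. *P2ry12* was at 582 CPM in brain 1 and 1479 CPM in brain 2, and *Siglech* at 126 and 444 CPM. Genes of monocytes and monocyte-derived macrophages were higher in brain 1 in 16 of 19, with a median of -0.80. *Ms4a7* was at 637 CPM in brain 1 and 377 CPM in brain 2. Inflammatory genes were higher in brain 2 in 12 of 16, at a median of 1.23, and alternatively activated genes in brain 1 in 9 of 12, with *Arg1* at 2183 CPM in brain 1 and 751 CPM in brain 2. *Ccl3* was at 1025 CPM in brain 1 and 4016 CPM in brain 2. All 8 astrocyte genes counted were also higher in brain 2, where their list summed to more than in brain 1, as were 9 of 11 NK-type and cytotoxic genes, with a median of 1.30 and sums of 50.1 and 156 CPM. T cell identity genes went the other way, with 13 of 16 higher in brain 1, a median of -0.33 and sums of 91.8 and 70.9 CPM. Pericyte and fibroblast genes were split, with 3 of 5 higher in brain 2. *Dcn*, decorin, was at 1.20 CPM in brain 1 and 45.7 CPM in brain 2. *Acta2* and *Tagln* were higher in brain 1, at log2 ratios of -1.09 and -1.67. The part of these lists in the differences was not tested.

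**Figure D5:**
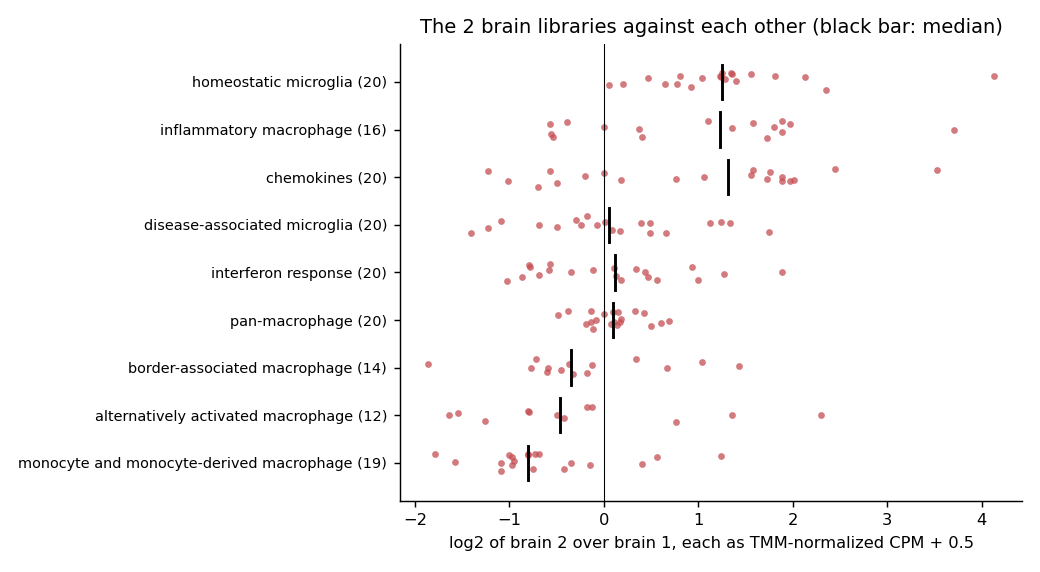
Log2 ratio of brain 2 over brain 1 (each as TMM-normalized CPM + 0.5) for members of 9 myeloid and chemokine lists with at least 10 counts in a brain library, with the number of genes in brackets and the median as a black bar. Homeostatic microglia genes lie to the right (median 1.25), genes of monocytes and monocyte-derived macrophages to the left (median -0.80), and pan-macrophage genes around 0.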

How the data were processed

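RNA from FACS-sorted cells of 6 samples in 3 groups of 2 was sequenced on a NextSeq 500. Per the labels and the study's methods, the authors trimmed adapters, checked reads with FastQC and mapped them to GRCm38 (mm10) with TopHat. The study's methods name Cufflinks for abundance, Ensembl gene IDs and R/Bioconductor for read counts and FPKM, and the sources used here give no TopHat version or annotation release. The count values are raw whole counts per gene symbol as deposited by the authors, and the FPKM values were computed by the authors, with no further scaling here. Before testing, 5 rows that name no gene and 27 date-named rows were removed. The rows without a gene held 43% to 45.6% of reads as having no feature and 14% to 22% as not unique, and the date-named rows 0.0804% to 0.14%, each relative to the library's total over all rows. Whether counting used strand is likewise not given, so overlapping and antisense genes, and members of families with near-identical copies such as H2, Gimap, Ly6 and ribosomal protein genes, may share reads. FPKM was matched by symbol and served for levels between genes. Gene coordinates are those of GENCODE M21 (GRCm38).

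Counts of all 6 samples were fitted with edgeR 4.0.16 (quasi-likelihood test, TMM, R 4.3.3), for genes with at least 10 counts in both libraries of brain or of sham blood, with Benjamini-Hochberg adjustment over the 11980 genes tested. A gene was called when its adjusted p was under 0.05 and it differed by more than 2-fold, and every adjusted p in the text comes from this test unless another is named. Where a group had no counts, the fold is a lower bound from 3 counts over the group, and with 1 to 3 counts a ratio is given with an exact 95% interval, which covers counting error only, since PCR reads are not independent molecules. In counts simulated for this comparison over 10764 genes, 67, 67 and 66 genes were changed 2-fold, 4-fold and 8-fold. Of these, 1.49%, 47.8% and 80.3% were called, by direction and an adjusted p under 0.05 alone. Far more genes were called in the data, and the adjustment is stricter where few genes change. These shares may therefore be too low for the data. DESeq2 1.42.0, limma 3.58.1 and other settings were alternatives, 19 in all. In fits without a sham blood or brain library, that group's lone library is assumed to vary like the other groups.

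Members and lists were chosen with earlier results of these data known. Genes named are the markers and sort markers, the 10 higher and 10 lower genes with the smallest p and no overlap, the 10 with the highest mean FPKM in brain and in sham blood, up to 4 members of each list with the smallest p, and *Lifr*, *Tgfa*, *Il10* and *Lif*. Others were chosen after their values were seen: *Cst7*, *Selplg*, *Mcoln1*, *Ctsa* and *Cln3*. So were genes that were listed but not tested: *Ngp*, *Camp*, *Ltf*, *Elane*, *Mpo*, *Retnlg*, *Mmp9*, *Aqp4*, *Sox9*, *Esam*, *Cldn5*, *Tek*, *Slco1a4*, *Tagln*, *Nos2*, *Retnla* and *Ccl22*. Some genes that this rule names are not reported here.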

Additional observations from a re-analysis of the deposited data

How the results depend on the processing

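Of the genes called, 0 were called in the opposite direction under any of the 19 alternatives. Of the 233 named genes, 206 were called and 160 of these kept their call in each fit without 1 library. With library size alone in place of TMM, 2760 genes were lower, with 13 lipid, 74 translation and 13 mitochondria members lower and 3 translation members higher, and the log2 fold change of *Ndufa2*, not called, turned to -0.033. With an adjusted p under 0.01, 1171 genes were higher and 750 lower. Members then higher were 30 lipid, 24 transcription factor, 2 translation and 19 mitochondria genes, and members lower were 1 lysosome, 2 lipid, 36 transcription factor and 1 translation gene. With limma on log2(FPKM + 1) and log2(FPKM + 0.1), 1547 and 1471 genes were higher. Lipid members lower were 11 and 11, translation members higher 4 and 3 and lower 37 and 37, and mitochondria members lower 11 and 11. On the 4 samples compared alone, 21 (DESeq2) and 22 (edgeR) translation members were lower.

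Without 1 library, genes higher ranged from 942 to 2993 and lower from 699 to 2119, and the highest counts came without a tMCAO blood library. Members higher ranged from 26 to 52 for lipid, 22 to 61 for transcription factors, 57 to 99 for receptors, 1 to 11 for translation and 18 to 37 for mitochondria. Members lower ranged from 1 to 3 for lysosome, 2 to 10 for lipid, 35 to 102 for transcription factors and 0 to 22 for translation. The log2 fold change of *Srgn*, not called, ranged from -0.49 to 0.10. The cause of these shifts was not tested. Deviations from the group mean were nearly uncorrelated between samples that share a replicate number (r from -0.0462 to 0.0511). With 2 libraries per group and unlike RNA in brain and blood, this cannot decide whether the numbers pair the samples. With the replicate block 2015 genes were higher and 1333 lower. In the simulation with groups of 2, 1.49% of 2-fold changes were called, which may be too low for these data because few genes were changed in it.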
